A study of Rattus norvegicus with 24 samples.

Results

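The genes described here are the 4 that mark the transmitter of a brain neuron in this series, taken from the count table by their identifiers: Gad1 (ENSRNOG00000000007), Gad2 (ENSRNOG00000018200), Slc17a6 (ENSRNOG00000016147) and Slc17a7 (ENSRNOG00000020650). All 4 were found among the 17323 genes of the count table, and all 4 were among the 16289 that passed the filter on low counts. The libraries came from F1 males of the inbred strains F344 (Fischer) and BN (Brown Norway), and each rat gave 1 library from every region: the ventral tegmental area (VTA), the core of the nucleus accumbens (NAc core) and its shell (NAc shell). Rats 1, 2, 11 and 15 were sired by F344 and born to BN mothers (cross A), while for rats 3, 4, 13 and 16 the father was BN and the mother F344 (cross B). Within each cross 2 rats (1 and 2 in A, 3 and 4 in B) were labelled as injected with 0.4 mg/kg nicotine (NIC) on each of 4 days and 2 rats as injected with saline (SAL). Every rat of both crosses and both injections then received intravenous NIC at 30 µg/kg per infusion, at 10 infusions a session over 6 sessions, and was killed for tissue on day 15, so no group here was free of NIC. The tissue was dissected by hand from bulk brain, and a lower level can come from fewer cells of a type or from less RNA in each cell; these cannot be told apart in such samples.

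Gad1 and Gad2 encode the GAD67 and GAD65 forms of glutamate decarboxylase, the enzymes that make the inhibitory transmitter GABA from glutamate. Slc17a6 and Slc17a7 encode the vesicular glutamate transporters VGLUT2 and VGLUT1, which load glutamate into synaptic vesicles. In the forebrain VGLUT1 is known from cortical and hippocampal excitatory neurons, and VGLUT2 from thalamic and brainstem neurons, including glutamate neurons of the VTA. The principal neurons of the NAc are GABAergic, and the VTA holds dopamine, GABA and glutamate neurons. Most mRNA of a neuron lies in its cell body and not in its axon terminals.

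The stretches just before the first annotated base of each gene are shown so that the 4 genes, whose order over the regions was not the same, can be compared in sequence. They are RefSeq sequences of build GRCr8 on the plus strand, at chr3:75777202-75777259 for Gad1, chr17:89671468-89671717 for Gad2, chr1:110348197-110348446 for Slc17a6 and chr1:104785955-104786171 for Slc17a7. Capitals mark matches on either strand to the GC box GGGCGG, the TATA box TATAAA and the E box CAGCTG.
Gad1: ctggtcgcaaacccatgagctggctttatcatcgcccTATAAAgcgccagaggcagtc
Gad2: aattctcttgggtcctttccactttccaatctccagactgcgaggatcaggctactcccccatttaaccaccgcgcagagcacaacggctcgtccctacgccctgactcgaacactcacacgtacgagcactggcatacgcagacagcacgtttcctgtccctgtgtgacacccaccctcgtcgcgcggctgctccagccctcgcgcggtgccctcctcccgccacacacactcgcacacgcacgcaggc
Slc17a6: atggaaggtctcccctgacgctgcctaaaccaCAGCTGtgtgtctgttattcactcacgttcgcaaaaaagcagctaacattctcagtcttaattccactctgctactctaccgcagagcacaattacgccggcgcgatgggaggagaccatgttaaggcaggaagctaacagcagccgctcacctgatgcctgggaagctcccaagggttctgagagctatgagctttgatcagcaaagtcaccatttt
Slc17a7: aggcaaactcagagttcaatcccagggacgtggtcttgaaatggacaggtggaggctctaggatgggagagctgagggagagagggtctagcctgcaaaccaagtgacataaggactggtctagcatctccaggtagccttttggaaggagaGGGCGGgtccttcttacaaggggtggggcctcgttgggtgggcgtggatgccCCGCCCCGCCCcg
The Slc17a7 stretch of 217 bases held 3 GC boxes, the last of which overlap by a single base, and the Slc17a6 stretch of 250 bases held 1 E box. The 58 bases of Gad1 held 1 TATA box, its 250-base promoter window held 1 GC box outside the bases shown, and the 250 bases of Gad2 held no match to these letters. Over 33469 RefSeq promoters, the 250 bases before the start held a GC box in 30.5%, a TATA box in 12.9% and this E box in 11.97%. A match is a match of letters and not a measured binding site.

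The libraries held 17563458 to 24405856 counts. Levels are given as CPM, the count relative to library size, scaled by trimmed mean of M values (TMM) factors. CPM does not correct for transcript length, so it serves to compare a gene between libraries and not to rank the genes against each other. Differences are log2 fold changes with their standard error (SE) from edgeR's quasi-likelihood F test, and the p-values of all 16289 genes were adjusted together (Benjamini-Hochberg). A gene was called at an adjusted p under 0.05.

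The labelled tissues were checked against defining markers before the genes were compared. The dopamine transporter gene Slc6a3 lay at 701 to 1313 CPM in 7 of the 8 VTA libraries and at 0 to 0.80 CPM in the 16 NAc libraries, and the striatal receptor gene Drd1 lay at 76.2 to 130 CPM in the NAc and at 0.93 to 2.5 CPM in the VTA. The library labelled VTA A replicate 2 stood apart. Its Slc6a3 was 20.9 CPM, and its summed level of 7 dopamine neuron markers was 78.1 CPM against 1128 to 2059 CPM in the other 7. Its sum of 11 striatal projection neuron markers, 357 CPM, lay within the 259 to 387 CPM of the other VTA libraries. In those the largest members of this sum were Ppp1r1b (87.2 to 207 CPM) and Drd2 (83.2 to 142 CPM). The sum therefore says little of its smaller members. Drd1, among the smaller, was 2.5 CPM in this library and 0.93 to 1.73 CPM in the other 7. The library's sum of 4 cortical excitatory neuron markers, 1383 CPM, lay above the 276 to 421 CPM of the others, with Nrgn its largest member. It was also below the other 7 in the summed astrocyte markers (1458 against 2768 to 4066 CPM), oligodendrocyte markers (20985 against 23155 to 47657 CPM) and the microglia marker (11.0 against 14.3 to 27.3 CPM), and above them in summed glutamate receptor genes (995 against 289 to 486 CPM). Of the GABA lists used later, its 3 packaging, uptake and breakdown genes summed to 223 CPM, below the 358 to 408 CPM of the other 7, and its 8 receptor genes to 1999.8 CPM, above their 1451 to 1953 CPM. Most Slc17a7 differences and ratios against the VTA are given with and without this library. Other values against the VTA include it unless stated.

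The GABA genes were highest in the NAc shell, intermediate in the NAc core and lowest in the VTA. Gad1 measured 398 to 466 CPM in the NAc core (median 430 CPM), 473 to 631 CPM in the NAc shell (median 572 CPM) and 190 to 368 CPM in the VTA (median 304 CPM), with 8 libraries each. No Gad1 value of a region overlapped those of another region, a separation found for 3.3% of all genes between core and shell, 24.5% between core and VTA and 24.3% between shell and VTA. Gad2 measured 387 to 486 CPM in the core (median 421 CPM), 474 to 722 CPM in the shell (median 579 CPM) and 158 to 333 CPM in the VTA (median 292 CPM). The shell and core ranges of Gad2 overlapped at their edge, and all 8 VTA libraries lay below every NAc library. The lowest VTA library for both genes was rat 1 of cross A, which also had the lowest VTA level of Slc32a1, the vesicular GABA transporter gene, at 66.4 CPM against 99.5 to 173 CPM in the other 7. Markers of other cells moved with the regions too. The summed level of 3 oligodendrocyte markers had a median of 35036 CPM in the VTA against 10760 CPM in the core and 10393 CPM in the shell, and that of 2 astrocyte markers 3746 CPM against 1001 and 1182 CPM. All 3 markers of midbrain GABA neurons (Tal1, Gata2 and Gata3) were called higher in the VTA, beside 31.1% of all genes against the core and 30.5% against the shell. Their median sums were 51.1 CPM in the VTA, 17.8 CPM in the core and 16.3 CPM in the shell. The part of these cells in the Gad1 and Gad2 differences was not tested.

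**Figure D1:**
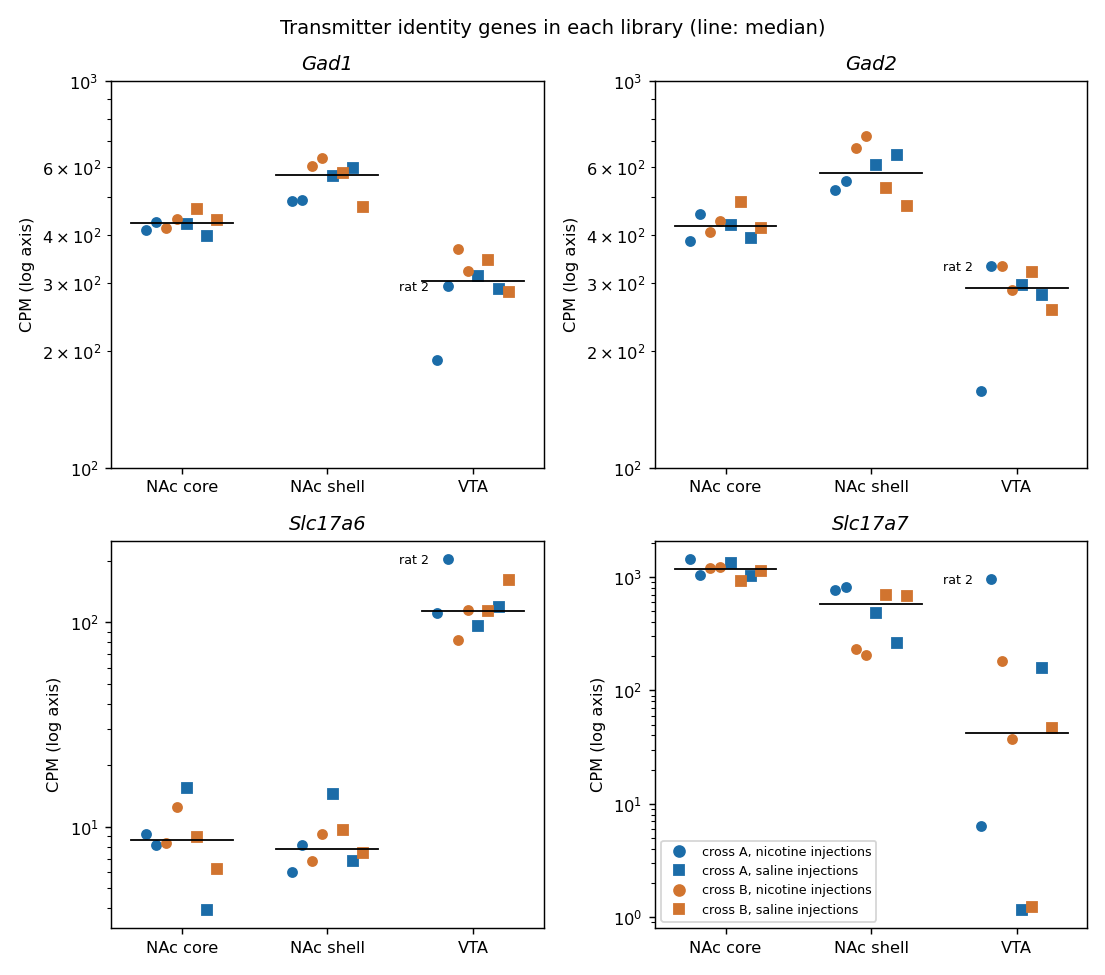
CPM of Gad1, Gad2, Slc17a6 and Slc17a7 in each of the 24 libraries, by region, on log axes; colours give the cross, symbols the injection, and lines the median of 8 libraries. The Gad1 and Gad2 points step down from shell to core to VTA, the Slc17a6 points of the VTA (81.7 to 204 CPM) stand above all NAc points, and the VTA points of Slc17a7 run from 1.15 to 969 CPM, with rat 2 highest.

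The glutamate transporter genes were split between the regions. Slc17a6 measured 3.9 to 15.5 CPM in the NAc core (median 8.6 CPM) and 6.0 to 14.6 CPM in the NAc shell (median 7.8 CPM). It measured 81.7 to 204 CPM in the VTA (median 114 CPM), so the VTA and NAc libraries did not overlap. Slc17a7 ran the other way, with 921 to 1445 CPM in the core (median 1168 CPM), 207 to 811 CPM in the shell (median 577 CPM) and 1.15 to 969 CPM in the VTA (median 42.2 CPM). All 8 core libraries lay above all 8 shell libraries for Slc17a7. The VTA range of Slc17a7 reached into both NAc ranges through rat 2 alone, since the other 7 VTA libraries ended at 182 CPM.

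Between the NAc core and the NAc shell, 3 of the 4 genes were called, against 15.1% of all genes tested (7.88% higher and 7.21% lower in the core). Gad1 was lower in the core by a log2 difference of -0.37 ± 0.06 (adjusted p = 0.000143) and Gad2 by -0.48 ± 0.08 (adjusted p = 0.000172). Slc17a7 was higher in the core by 1.17 ± 0.25 on the log2 scale (adjusted p = 0.00232), which is 2.25-fold. The 4 cortical excitatory neuron markers summed to 1818 to 2863 CPM in the core and 694 to 1302 CPM in the shell, and 2 of them were called higher in the core, Nrgn by 1.30 ± 0.14 and Slc30a3 by 1.43 ± 0.26 (adjusted p = 1.75e-06 and 0.000649). The other 2 were not called, Camk2a at 0.20 ± 0.15 and Cux2 at -0.25 ± 0.10 (adjusted p = 0.434 and 0.104). The part of these markers' cells in the Slc17a7 difference was not tested. Markers of accumbens neurons moved between core and shell as well. Of 6 striatal interneuron markers 3 were called, all lower in the core and all of cholinergic neurons, Slc18a3 by -1.17 ± 0.21, Chat by -1.08 ± 0.20 and Slc5a7 by -0.95 ± 0.18. Of 11 striatal projection neuron markers 5 were called higher in the core, among them Ppp1r1b (0.59 ± 0.11), Drd2 (0.56 ± 0.12) and Adora2a (0.53 ± 0.12), and 1 lower, Drd3 (-1.26 ± 0.39). The median sum of the projection neuron markers was 3831 CPM in the core and 2705 CPM in the shell, and the part of these cells in the Gad1 and Gad2 differences was not tested. The Slc17a6 difference of 0.08 ± 0.22 was within the spread of the libraries (adjusted p = 0.864).

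Between the NAc core and the VTA all 4 genes were called, where 61.8% of all genes were (30.7% higher and 31.1% lower in the core). Gad1 was higher in the core by 0.53 ± 0.09 (adjusted p = 9.3e-05) and Gad2 by 0.60 ± 0.11 (adjusted p = 0.000160), and Slc17a6 was lower in the core by a log2 difference of -3.77 ± 0.25 (adjusted p = 1.02e-09), so its level was 13.6-fold higher in the VTA. Slc17a7 was higher in the core by 2.75 ± 0.95 (adjusted p = 0.0184). Without VTA A replicate 2 the Slc17a7 difference was 4.27 ± 0.81 (adjusted p = 0.000176), and with the rat as a block it was 5.02 ± 1.16 (adjusted p = 0.00327). Without that library all 4 cortical excitatory neuron markers were also called higher in the core than in the VTA, with a median of 2.36. The part of these markers' cells in the Slc17a7 difference was not tested.

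Between the NAc shell and the VTA, where 59.8% of all genes were called (29.3% higher and 30.5% lower in the shell), 3 of the 4 were. Gad1 was higher in the shell by 0.88 ± 0.11 (adjusted p = 1.44e-06) and Gad2 by 1.06 ± 0.13 (adjusted p = 1.62e-06), and Slc17a6 was lower in the shell by a log2 difference of -3.86 ± 0.21 (adjusted p = 2.1e-10). Slc17a7 was not called, with a difference of 1.56 ± 0.95 (adjusted p = 0.164). Without VTA A replicate 2 its difference was 3.05 ± 0.81 (adjusted p = 0.00319), and with the rat as a block over all 16 libraries it was 3.45 ± 1.26 (adjusted p = 0.0354). The other 3 genes stayed called in both of these fits. Without VTA A replicate 2, 3 of the 4 cortical excitatory neuron markers were called higher in the shell and 1 was not called, with a median of 1.18. The part of these markers' cells in the Slc17a7 difference was not tested.

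The GABA and glutamate genes were then set against each other within each library, as ratios of counts with 0.5 added to each count. Such a ratio is free of library size but still holds the unknown lengths of the transcripts, so its distance from 1 cannot be read. Its differences between regions can be read for a ratio of single genes, and for the summed ratio only between core and shell, where Slc17a7 gave nearly all the glutamate counts. The summed counts of Gad1 and Gad2 over those of Slc17a6 and Slc17a7 gave 0.549 to 1.02 in the NAc core (geometric mean 0.733), 1.28 to 6.26 in the NAc shell (geometric mean 2.45) and 0.535 to 6.27 in the VTA (geometric mean 2.75). The core was lower than the shell by a log2 difference of -1.74 ± 0.36 (two-sided exact permutation test over 8 and 8 libraries, p = 0.000155, the smallest these splits allow, adjusted p = 0.00140 over 27 ratio tests). In most VTA libraries Slc17a6 gave more counts than Slc17a7, so a summed ratio set against the VTA also holds the unknown lengths of both transcripts and is given as a value only, with no call. The core differed from the VTA by -1.91 ± 0.40, and by -2.25 ± 0.25 without VTA A replicate 2. The shell and the VTA differed by -0.17 ± 0.52, and by -0.50 ± 0.42 without VTA A replicate 2.

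**Figure D2:**
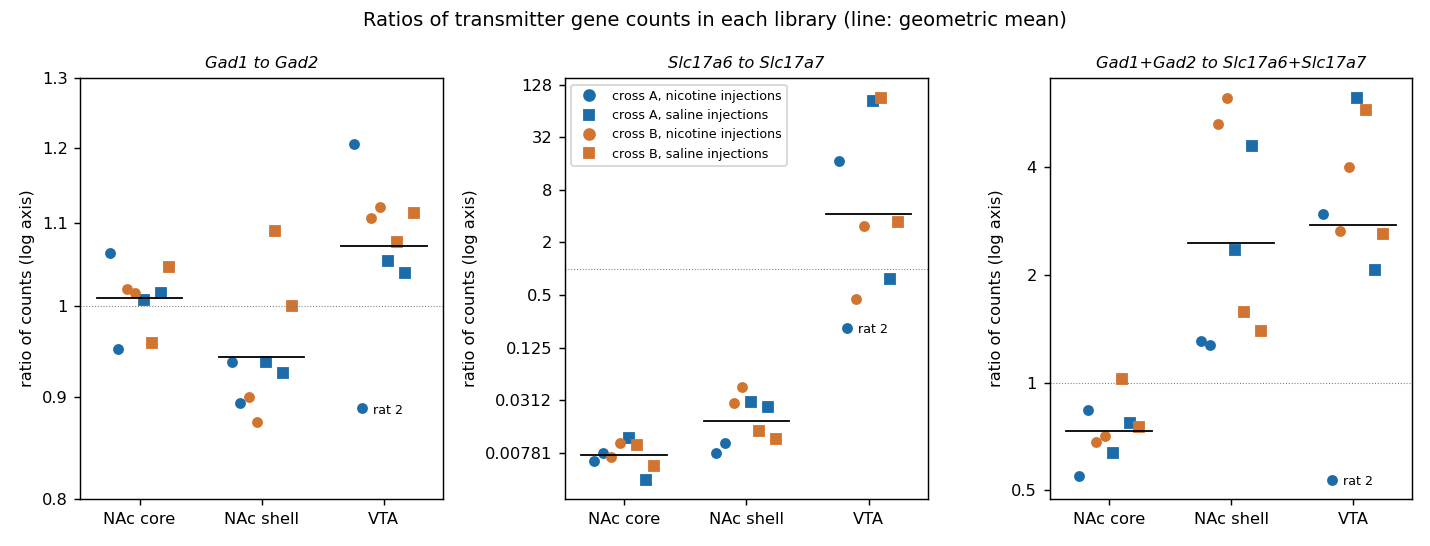
Ratios of counts within each library by region, on log axes: Gad1 to Gad2, Slc17a6 to Slc17a7, and the summed GABA genes to the summed glutamate genes. Lines are geometric means of 8 libraries, and the dotted line marks a ratio of 1; the Slc17a6 to Slc17a7 ratio spans 0.0039 to 91.0 over the 24 libraries, and rat 2 is the lowest VTA point in all 3 panels.

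The transporter genes gave the ratio with the widest range. The Slc17a6 to Slc17a7 ratio was 0.0039 to 0.0117 in the core, 0.0079 to 0.0446 in the shell and 0.211 to 91.0 in the VTA. All 8 VTA libraries, rat 2 included, lay above all 16 NAc libraries. The core was lower than the VTA by a log2 difference of -9.15 ± 1.19 and the shell by -7.84 ± 1.22 (exact permutation p = 0.000155 and adjusted p = 0.00140 for each). Without VTA A replicate 2 these differences were -9.77 ± 1.17 and -8.46 ± 1.202 (adjusted p = 0.00105 for each). The core was also lower than the shell, by a difference of -1.32 ± 0.37 (exact permutation p = 0.00389, adjusted p = 0.0210). Without rat 3 or without rat 15 that last call was lost (adjusted p = 0.0755 and 0.0787).

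Gad1 and Gad2 kept close to a fixed ratio. The Gad1 to Gad2 ratio was 0.951 to 1.06 in the core, 0.874 to 1.09 in the shell and 0.888 to 1.21 in the VTA. The shell was lower than the VTA by a log2 difference of -0.19 ± 0.06 (exact permutation p = 0.00948, adjusted p = 0.0427). The call held without rat 2 or rat 13 (adjusted p = 0.0126 and 0.0315) and was lost without any one of the other 6 rats (adjusted p = 0.0865 to 0.144). The core differed from the shell by 0.10 ± 0.04 (exact permutation p = 0.0351, adjusted p = 0.135) and from the VTA by -0.09 ± 0.05 (exact permutation p = 0.0979, adjusted p = 0.294). Without VTA A replicate 2, whose ratio was the lowest of the VTA, the core and VTA differed by -0.13 ± 0.03 (adjusted p = 0.00559). With the rats paired by an exact sign-flip test no ratio was called in any region comparison: 8 pairs allow no p below 0.00781, and the adjusted p of the 5 single-gene or core and shell ratio differences called without pairing were 0.0527 to 0.141.

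The VTA libraries differed most in Slc17a7, and each is therefore given. In cross A the NIC rats 1 and 2 measured 6.42 and 969 CPM (145 and 17393 counts), and the SAL rats 11 and 15 measured 1.15 and 156 CPM (28 and 3706 counts). In cross B the NIC rats 3 and 4 measured 182 and 37.4 CPM (3678 and 769 counts), and the SAL rats 13 and 16 measured 1.23 and 47.0 CPM (25 and 947 counts). Low and high libraries were thus spread over both crosses and both injections. Slc17a6 in the same order measured 111, 204, 96.0 and 119 CPM in cross A and 81.7, 115, 114 and 161 CPM in cross B, a far narrower spread. The highest Slc17a6 values were those of rats 2 and 16, which were the VTA libraries of preparation batch L; the part of the batch was not tested.

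Slc30a3, a vesicular zinc transporter gene used as a marker of cortical excitatory neurons, was also uneven in the VTA. It measured 135 CPM in rat 2, 57.4 CPM in rat 3 and 29.9 CPM in rat 15, which were the 3 libraries highest in Slc17a7. It measured 10.1 to 25.2 CPM in the other 5. In rat 2 the synaptic marker Nrgn was 1061 CPM against 183 to 285 CPM in the other 7, and Camk2a was 143 CPM against 11.7 to 60.3 CPM. The remaining marker of the list, Cux2, was not raised in rat 2, at 44.5 CPM within the 42.5 to 64.8 CPM of the other 7. The part of such cells in the VTA level of Slc17a7 was not tested.

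**Figure D3:**
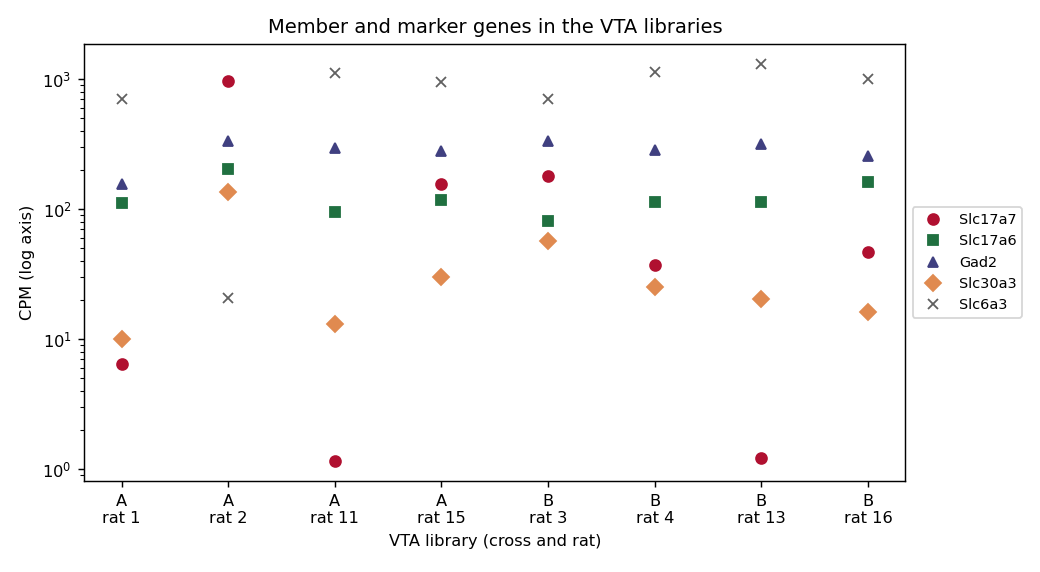
CPM of Slc17a7, Slc17a6 and Gad2 with the marker genes Slc30a3 and Slc6a3 in each of the 8 VTA libraries, on a log axis. Slc17a7 spans 1.15 to 969 CPM while Gad2 stays between 158 and 333 CPM, and rat 2 combines the highest Slc17a7 with the lowest Slc6a3, 20.9 CPM.

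The reciprocal crosses, which differ in the strain of the father and the mother, were compared in each region. In the paper only cross A was inclined to self-administer NIC, so parentage and this behaviour cannot be told apart. None of the 4 genes was called in any region. Over all genes the core had 3 calls (0.0184%), the shell 1 (0.00614%) and the VTA 0 (0%, with 929 at an unadjusted p under 0.05), and DESeq2 called 65, 5 and 6. Gad1 was lower in cross A in all 3 regions without passing the test, with log2 differences of -0.08 ± 0.06 in the core, -0.10 ± 0.10 in the shell and -0.27 ± 0.16 in the VTA (adjusted p = 0.713, 0.995 and 0.812). Gad2 differed by -0.07 ± 0.07, -0.05 ± 0.12 and -0.15 ± 0.21 (adjusted p = 0.788, 0.996 and 0.907). The Slc17a6 differences were 0.03 ± 0.33, 0.09 ± 0.25 and 0.17 ± 0.27, again within the spread (adjusted p = 0.990, 0.996 and 0.920).

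Slc17a7 overlapped between the crosses in every region. In the NAc core cross A measured 1445, 1045, 1325 and 1020 CPM (rats 1, 2, 11 and 15) and cross B 1202, 1222, 921 and 1134 CPM (rats 3, 4, 13 and 16). The difference of cross A from cross B was 0.11 ± 0.12 on the log2 scale (adjusted p = 0.817). In the VTA it was 2.10 ± 1.72 (adjusted p = 0.842), and without rat 2 it turned to -0.26 ± 1.50 (adjusted p = 0.966). No cross difference changed between regions beyond the spread: 0 of the 16289 genes were called for any of the 3 interactions of cross and region (0%; 357, 1490 and 951 at an unadjusted p under 0.05 for core against shell, core against VTA and shell against VTA; 2, 20 and 5 with DESeq2), and none of the 4 genes was. The 3 ratios did not differ between crosses in any region either (adjusted p = 0.771 to 1 over 9 of the 27 ratio tests; 4 libraries against 4 allow no exact permutation p below 0.0286).

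The injections of days 1 to 4 were compared next, with the NIC and SAL rats of both crosses pooled. They are known from the sample labels alone, since the study's methods do not describe them for these rats. None of the 4 genes was called, and 0 genes of the whole table were in any region (0%; 1041, 481 and 331 at an unadjusted p under 0.05 in the core, shell and VTA; 3, 4 and 4 with DESeq2). Gad1 differed by -0.02 ± 0.06 in the core, 0.01 ± 0.10 in the shell and -0.09 ± 0.18 in the VTA, as log2 differences of NIC from SAL (adjusted p = 0.959, 0.999 and 1). Gad2 differed by -0.03 ± 0.07, 0.13 ± 0.12 and -0.08 ± 0.21 (adjusted p = 0.956, 0.999 and 1). Slc17a6 differed by 0.15 ± 0.33, -0.35 ± 0.23 and 0.04 ± 0.27, and Slc17a7 by 0.16 ± 0.11, -0.07 ± 0.43 and 2.51 ± 1.68 (adjusted p = 0.811 to 1 for these 6). The VTA value of Slc17a7 fell from 2.51 to 0.51 ± 1.49 without rat 2. The 9 ratio tests of the injections gave adjusted p of 0.289 to 1. In the core and the shell all SAL libraries and no NIC library were of preparation batch G, so batch and injection cannot be told apart there. In the VTA batch L held 1 NIC library (rat 2, cross A) and 1 SAL library (rat 16, cross B), too few for a comparison within the batch.

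In the NAc shell, Slc17a7 was ordered by cross and injection together. The NIC rats of cross A measured 768 and 811 CPM (rats 1 and 2) and the NIC rats of cross B 233 and 207 CPM (rats 3 and 4). The SAL rats of cross A measured 482 and 264 CPM (rats 11 and 15) and those of cross B 693 and 672 CPM (rats 13 and 16). Cross A was therefore above cross B among the NIC rats and below it among the SAL rats. Over all 8 shell libraries the cross difference was 0.36 ± 0.42 (adjusted p = 0.995), while among the NIC rats alone it was 1.83 ± 0.08 (adjusted p = 0.000139) and among the SAL rats alone -0.87 ± 0.24 (adjusted p = 1).

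The interaction of cross and injection, added after these values were seen, was 2.70 ± 0.30 on the log2 scale for Slc17a7 in the shell (adjusted p = 0.00966). Slc17a7 was the only one of the 4 genes called, against 57 of all genes (0.35%), and DESeq2 called 225. Leaving out rats 1, 2, 3, 4, 13, 15 or 16 lowered those 57 calls to 1, 6, 24, 3, 29, 36 and 5, and leaving out rat 11 raised them to 134. The Slc17a7 interaction kept its direction without each of the 8 rats (2.33 to 3.20), but its adjusted p was 0.0747, 0.0533, 0.0901 and 0.0568 without rats 1, 2, 4 and 16. In cross A and cross B the NIC rats were of preparation batches E and F and the SAL rats of batch G, so among the NIC rats cross and batch cannot be told apart; among the SAL rats, all of batch G, the cross difference was not called. In the core the same interaction was -0.15 ± 0.23 (adjusted p = 0.957) with 1 gene called (0.00614%; 17 with DESeq2), and in the VTA it was 0.47 ± 3.36 (adjusted p = 0.998) with 0 called (0%, 878 at an unadjusted p under 0.05, 78 with DESeq2, 137 without rat 1 and 24 without rat 2). Whether the interaction differed between regions was not tested.

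Gad1 and Gad2 were not called for this interaction, and their values had the opposite sign. Gad2 measured 523 and 552 CPM in the NIC rats and 605 and 644 CPM in the SAL rats of cross A, and 669 and 722 CPM in the NIC rats and 530 and 474 CPM in the SAL rats of cross B. Its interaction was -0.70 ± 0.13 (adjusted p = 0.0591, and 3.41e-05 with DESeq2). Gad1 measured 490, 494, 567 and 596 CPM in cross A and 602, 631, 578 and 473 CPM in cross B in the same order, with an interaction of -0.48 ± 0.14 (adjusted p = 0.321, and 0.0496 with DESeq2). Rats 3, 4 and 15 thus had the 3 lowest Slc17a7 levels of the shell and the 3 highest levels of both Gad1 and Gad2. Slc17a6 stayed between 6.0 and 14.6 CPM, with an interaction of -0.51 ± 0.47 (adjusted p = 0.921).

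Of the 4 cortical excitatory neuron markers measured, 2 moved with Slc17a7 in the shell. Slc30a3 measured 58.9 and 64.1 CPM in rats 1 and 2, 34.7 and 15.1 CPM in rats 11 and 15, 29.3 and 15.4 CPM in rats 3 and 4 and 64.2 and 60.6 CPM in rats 13 and 16, with an interaction of 2.77 ± 0.48 (adjusted p = 0.0449). Nrgn had an interaction of 1.35 ± 0.16 (adjusted p = 0.0103). The other two, Cux2 and Camk2a, had interactions of 0.13 ± 0.19 and 0.14 ± 0.21 (adjusted p = 0.964 and 0.969). The summed level of the 4 markers was 1138 to 1302 CPM in the NIC rats of cross A, 824 to 853 CPM in the SAL rats of cross A, 694 to 808 CPM in the NIC rats of cross B and 1162 to 1184 CPM in the SAL rats of cross B. Cholinergic interneuron markers had values of the opposite sign that were not called, with interactions of -1.84 ± 0.38 for Chat, -1.51 ± 0.35 for Slc5a7 and -1.66 ± 0.49 for Slc18a3 (adjusted p = 0.0942, 0.146 and 0.325). None of the 6 interneuron and 11 projection neuron markers was called. The part of cortical cells and interneurons in the shell values was not tested.

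**Figure D4:**
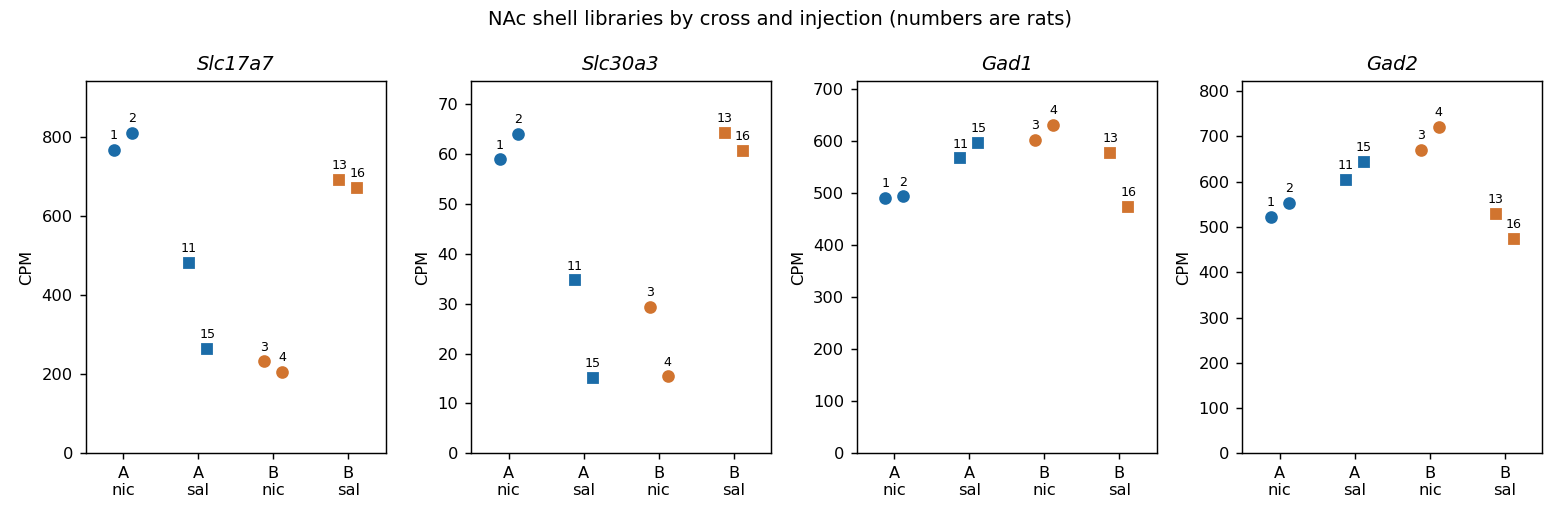
CPM of Slc17a7, the cortical marker Slc30a3, Gad1 and Gad2 in the 8 NAc shell libraries, by cross (A, B) and injection (nic, sal), from a zero baseline; numbers are rats. Slc17a7 and Slc30a3 are low in rats 3, 4 and 15, where Slc17a7 is 207 to 264 CPM, and Gad1 and Gad2 are highest in those rats.

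Other genes of the pathways were taken from lists, of which only the genes with a known symbol could be followed. Of 5 genes of GABA packaging, uptake and breakdown, 3 were tested. Between core and shell 2 were lower in the core, where 7.21% of all genes were, namely Slc6a13, a GABA transporter of the cell surface (-0.73 ± 0.17, adjusted p = 0.00586), and Slc32a1 (-0.29 ± 0.08, adjusted p = 0.0116). Slc32a1 was higher in the core than in the VTA by 0.43 ± 0.13 (adjusted p = 0.00924) and in the shell by 0.70 ± 0.14 (adjusted p = 0.000434), the same directions as Gad1 and Gad2. Against the VTA all 3 genes were called in the core and 2 in the shell, beside 61.8% and 59.8% of all genes. Abat, which breaks GABA down, was lower in the core and the shell than in the VTA (-1.07 ± 0.14 and -0.84 ± 0.12, adjusted p = 3.44e-06 and 1.01e-05), and Slc6a13 was lower in the core than in the VTA (-1.47 ± 0.43, adjusted p = 0.00636). The median log2 difference of the 3 genes was -0.29, -1.07 and -0.76 for core against shell, core against VTA and shell against VTA, beside -0.01, -0.01 and -0.02 over all genes.

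Of 12 genes of glutamate packaging, supply and uptake, 8 were tested. Between core and shell 2 were higher in the core, the glial glutamate transporter gene Slc1a2 (0.28 ± 0.06) and the glutaminase gene Gls2 (0.22 ± 0.06), and 1 was lower, the glutamate dehydrogenase gene Glud1 (-0.21 ± 0.03), beside 7.88% and 7.21% of all genes. Between core and VTA 3 were higher and 3 lower, and between shell and VTA 2 were higher and 4 lower, beside 61.8% and 59.8% of all genes called. Slc17a8, which encodes the remaining vesicular glutamate transporter VGLUT3, was higher in the core and the shell than in the VTA (1.14 ± 0.48 and 1.16 ± 0.49, adjusted p = 0.0481 and 0.0491), at levels of 2.5 to 5.3 CPM in the NAc and 0.33 to 5.5 CPM in the VTA, where rat 3 lay above every NAc library. The glial transporter gene Slc1a3 was also higher in both (0.43 ± 0.06 and 0.45 ± 0.05), and Gls2 (-0.51 ± 0.06 and -0.75 ± 0.06) and the glutamine synthetase gene Glul (-0.35 ± 0.06 and -0.32 ± 0.05) were lower. The list's median difference was -0.01, -0.01 and -0.02, close to that of all genes.

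The receptor lists divided by subunit. Of 17 GABA receptor genes 8 were tested, and against the VTA 2 were higher and 4 lower in the core, and 2 higher and 3 lower in the shell, again beside 61.8% and 59.8% of all genes. The higher ones were Gabrd (4.31 ± 0.55 in the core and 3.82 ± 0.55 in the shell), whose δ subunit belongs to extrasynaptic receptors (5.22 ± 0.34 and 4.71 ± 0.34 without VTA A replicate 2), and Gabra4 (2.01 ± 0.26 and 1.75 ± 0.26). Gabrg1 was lower (-0.68 ± 0.12 and -0.40 ± 0.12). Without VTA A replicate 2 all 11 striatal projection neuron markers were also called higher in the core and the shell than in the VTA. Their medians were 3.80 and 3.22, beside -0.01 and -0.03 over all genes. The part of these cells in the GABA and glutamate receptor differences was not tested. Between core and shell Gabrd (0.47 ± 0.07) and Gabra4 (0.24 ± 0.07) were higher and Gabre (-0.82 ± 0.18) was lower, again beside 7.88% and 7.21% of all genes, and the list's medians were 0.07, -0.24 and -0.23.

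Of 24 glutamate receptor genes 13 were tested. In the core 8 were higher and 1 lower than in the VTA, and in the shell 8 were higher and 3 lower, with medians of 0.68 and 0.71, where 30.7% and 29.3% of all genes were higher and 31.1% and 30.5% lower. Grin2b (2.45 ± 0.31 in the core and 1.96 ± 0.30 in the shell) and Grik2 (1.65 ± 0.10 and 1.60 ± 0.10), which encode an NMDA and a kainate receptor subunit, were higher in both. Grin3a, another NMDA receptor subunit, was lower in both (-1.69 ± 0.18 and -1.12 ± 0.14). Between core and shell 4 were higher and 1 lower, with a median of 0.22, led by the AMPA receptor subunit gene Gria4 (0.47 ± 0.07). Of all genes 7.88% were higher and 7.21% lower in the core than in the shell. Without VTA A replicate 2 the counts against the VTA moved by at most 1 gene in each list, and that library held the highest VTA level of Gabrd (25.6 CPM against 1.3 to 7.8 CPM). No gene of the 4 lists was called for the cross or the injection in any region, nor for their interaction; 9 of the listed genes that were tested had their symbol only from gene tables that the study selected on these libraries, so these counts are no independent evidence.

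The genes with the most similar pattern were sought among 7443 others with a known symbol, as a description. Over the 24 libraries, which share 3 regions, Gad1 went with Gad2 (Pearson r = 0.98 of log2 CPM), Slc32a1 (r = 0.93) and Ndrg4 (r = 0.92), and Gad2 went after Gad1 with Mc4r and Cxcl14 (r = 0.92 each). Slc17a6 went with LOC102553190 (r = 0.97), Edil3 (r = 0.97) and Arhgap24 (r = 0.96), and Slc17a7 with Kcng1 (r = 0.97), Nptx2 (r = 0.95) and Icam5 (r = 0.95). As deviations from the region means over the 23 libraries other than VTA A replicate 2, Gad1 and Gad2 still went together (r = 0.95), followed by Lrrc49 (r = 0.90) and Kcnip4 (r = 0.89) for Gad1 and by Slc32a1 (r = 0.87) and Cplx1 (r = 0.85) for Gad2. Slc17a6 went with Hcrtr2 (r = 0.80), Elavl2 (r = 0.79) and Elavl4 (r = 0.75). Slc17a7 went with Lhx2 (r = 0.95), Ddn (r = 0.95) and Itpka (r = 0.91).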

How the data were processed

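RNA was sequenced from the NAc core, NAc shell and VTA of 8 rats, 24 libraries in all; the regions are labelled nac, nash and vta, read through the study's methods. The deposited values are estimated counts per gene, which per the labels came from fastp 0.20.0 and salmon 0.12.0 on Rnor 6, and the authors summed transcripts to genes with tximport; the file held whole numbers. Library totals of 17563458 to 24405856 counts limit the precision of low genes. TMM scaling, a filter (normalized count above 10 in at least 3 of 24 libraries, 16289 of 17323 genes kept) and quasi-likelihood tests were run in edgeR 4.0.16 with R 4.3.3, and SE is the log2 difference over the square root of F. Region tests used the 16 libraries of 2 regions, cross and injection tests the 8 of a region. Ratios were compared by exact two-sided permutation in Python 3.11.15 with scipy 1.17.1. The alternatives were DESeq2 1.42.0, other size factors and filters, covariates, the rat as a block and leaving out each rat or VTA A replicate 2. The scripts were tested on simulated data. The members and lists were chosen with earlier results of these data known. The genes to name were fixed by a rule: from each pathway list up to 3 called genes in each direction by adjusted p, and the 3 most similar genes of each member. Most symbols came from gene names in the study's supplementary tables (7446 pairs), some of which were selected on these libraries; the identifiers of Gad2 and Slc17a7 were given with their names in the request. Of 108 listed symbols 71 could be paired. All 4 promoters matched RefSeq by symbol, and coordinates are of GRCr8, not of the build used for counting. The same rat gave a library to each region, so rats pair the regions: correlations of same-rat deviations ran from -0.18 to 0.25. Each group's replicates are separate rats. No pair of replicates agreed within sampling noise. Preparation batches were E (NIC rats of cross A), F (NIC rats of cross B), G (SAL rats) and L (VTA of rats 2 and 16).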

Additional observations from a re-analysis of the deposited data

Results flagged for a closer look

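Slc17a7 in the VTA of cross A stood out because rat 2 measured 969 CPM, far from the other 3 libraries of its group, which measured 1.15 to 156 CPM. It was the 1 value of this kind among 42 sets examined, the 4 genes and 3 ratios in the same 6 groups of 4 libraries, so the sets are not independent; chance marks about 1 set in 20. The same library was low in dopamine neuron markers (78.1 CPM against 1128 to 2059 CPM) and high in the sum of cortical markers (1383 CPM against 276 to 421 CPM). Nrgn was the largest part of that sum, and Cux2 of the same list was not raised.

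Slc17a7 in the NAc shell stood out because its cross difference was not the same after NIC as after SAL injections, with an interaction of 2.70 ± 0.30 on the log2 scale (adjusted p = 0.00966). The cross difference was 1.83 ± 0.08 in the NIC rats, with both rats of cross A above both rats of cross B, and -0.87 ± 0.24 in the SAL rats, which was not called (adjusted p = 1). The interaction was no longer called without rat 1, 2, 4 or 16 (adjusted p = 0.0533 to 0.0901). The NIC rats of the crosses were prepared in different batches, so batch and cross cannot be told apart among them.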

How the results depend on the processing

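Differences below are on the log2 scale. In the region comparisons the called differences of Gad1, Gad2, Slc17a6 and Slc17a7 stayed called in the same direction under DESeq2, other size factors, other filters, the rat as a block and without each rat, and Slc17a7 between shell and VTA became called only with the block, without rat 2 or without VTA A replicate 2 (1.27 to 3.05 over the libraries left out). The rat as a block (pairing) lost 5 ratio calls, at adjusted p of 0.0527 to 0.141 (4 of them at 0.00781, the smallest p that 8 pairs allow, the first below at p = 0.0313 by the exact sign-flip test): Gad1 to Gad2 shell minus VTA -0.19, Slc17a6 to Slc17a7 core minus shell -1.32, core minus VTA -9.15 and shell minus VTA -7.84, and GABA to glutamate core minus shell -1.74. The summed ratio of core minus VTA, which is read as a value only, was -1.91 with and without the block. It turned the uncalled cross by region value of Slc17a7 for shell against VTA to 0.26 and changed no other call of the 4 genes or the ratios. For the rest the cause was not tested.

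Counts of called genes moved with the tool and the samples. For cross A against B in the core they were 65 with DESeq2 and 19 in NIC rats alone, and 1 to 3 without a rat; in the shell they were 5 with DESeq2, 0 with injection as covariate, 4 in SAL rats alone, 120 in NIC rats alone, and 0 to 3 without a rat; in the VTA they were 6 with DESeq2. For the injections DESeq2 called 3 in the core, 4 in the shell and 4 in the VTA, the cross as covariate gave 1 in the core, and leaving out a rat gave 0 to 1 in the shell. For cross by region DESeq2 called 2, 20 and 5. For cross by injection DESeq2 called 17 in the core, 225 in the shell and 78 in the VTA, and leaving out a rat gave 1 to 12, 1 to 134 and 0 to 137.

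The values that changed sign were of uncalled differences. For the cross in the core Slc17a6 was -0.28 in NIC rats alone. In the shell the preparation batch as covariate gave 0.14 for Gad1, 0.31 for Gad2 and -0.88 for Slc17a7, SAL rats alone gave 0.15, 0.32 and -0.87, and NIC rats alone gave -0.19 for Slc17a6. In the VTA Gad2 was 0.069 with batch and 0.0071 in SAL rats alone, where Slc17a6 was -0.35. With the cross as covariate the shell injection value of Gad1 was -0.0026. Without VTA A replicate 2 cross by region turned to 0.13 for Slc17a6 and 0.36 for Slc17a7 (core against VTA) and to 0.20 and 0.64 (shell against VTA), and the cross difference of the VTA Slc17a6 to Slc17a7 ratio was 1.17. The core minus VTA Gad1 to Gad2 ratio kept its sign without that library and became called, at -0.13.

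Leaving out each rat in turn gave these ranges. For the cross, Slc17a6 was -0.36 to 0.28 in the core, -0.25 to 0.24 in the shell and -0.11 to 0.37 in the VTA, Gad2 was -0.15 to 0.050 in the shell and -0.27 to 0.030 in the VTA, and Slc17a7 was -0.26 to 3.30 in the VTA. For the injections, the core gave -0.063 to 0.013 for Gad1, -0.075 to 0.031 for Gad2 and -0.10 to 0.59 for Slc17a6, the shell -0.065 to 0.062 for Gad1 and -0.39 to 0.19 for Slc17a7, and the VTA -0.21 to 0.068 for Gad1, -0.18 to 0.12 for Gad2 and -0.28 to 0.21 for Slc17a6. For cross by region, core against shell gave -0.046 to 0.095 for Gad1, -0.14 to 0.077 for Gad2, -0.22 to 0.077 for Slc17a6 and -0.63 to 0.023 for Slc17a7. Core against VTA gave -0.071 to 0.20 for Gad2, -0.66 to 0.18 for Slc17a6 and -3.16 to 0.43 for Slc17a7, and shell against VTA gave -0.026 to 0.26, -0.55 to 0.24 and -3.18 to 0.64. For cross by injection, Slc17a6 was -1.31 to 0.67 in the core and -0.96 to 0.14 in the shell, Slc17a7 was -0.41 to 0.065 in the core and -5.77 to 6.55 in the VTA, and Gad2 was -0.96 to 0.10 in the VTA.

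The ratios without a rat or without VTA A replicate 2 were as follows. Gad1 to Gad2 was 0.081 to 0.14 for core minus shell, -0.13 to -0.074 for core minus VTA, -0.22 to -0.16 for shell minus VTA, -0.027 to 0.027 for the cross in the core, -0.11 to 0.00042 for the cross in the shell, -0.017 to 0.037 for the injection in the core and -0.051 to 0.095 for the injection in the VTA. Slc17a6 to Slc17a7 was -1.46 to -1.11 for core minus shell, -0.44 to 0.091 for the cross in the core, -1.70 to 1.21 for the cross in the VTA, and -0.15 to 0.39 and -0.49 to 0.34 for the injection in the core and shell. GABA to glutamate was -0.50 to 0.078 for shell minus VTA and -0.092 to 0.67 for the injection in the shell.

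With 4 libraries a group, and 2 for each cross and injection, small differences were not detectable at this replication, and the VTA counts of Slc17a7 reached down to 25 reads. Transcript lengths were not used, so the levels of the genes were not ranked against each other.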
